A study of Mus musculus with 19 samples.

Results

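Translation factors outside eIF4F, the complex that binds the cap of an mRNA, were followed in mouse induced pluripotent stem cells. A protein-coding gene was taken as a member when its symbol was in the eIF1, eIF2, eIF3, eIF5, eIF6, eEF1 or eEF2 series, or was Eif4b, Eif4h, Etf1, Gspt1 or Abce1. Of the 67 names that fitted, 9 pseudogenes and 2 other entries (the lincRNA Eif2c5 and the Y-linked Eif2s3y) were left out. The remaining 56 members are among 52143 gene identifiers in the deposited table, and all 56 passed the filter on low counts. The rule uses names alone.

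The groups follow the db allele of Lepr, the leptin receptor gene. In 2 corrected lines (4 libraries) the mutation of db/db stem cells had been repaired with CRISPR-Cas9. The db/db group has 4 lines (8 libraries) that are homozygous for db, and the control group has 4 wild-type lines (7 libraries). All lines were made from fibroblasts of mouse embryos at day 14.5, bred from heterozygous db/+ parents, with the STEMCCA lentivirus carrying Oct4, Sox2, Klf4 and cMyc, so control lines carry the reprogramming vector too. The 4 control lines carry only 2 clone names, with lines 1 and 3 named A5 and lines 2 and 4 named B1, and the db/db lines likewise are db5 (lines 1 and 3) and db7 (lines 2 and 4). Which db/db clone was edited is not said in the labels. The study by its title links signals of the leptin receptor to protein synthesis and to neuronal differentiation, and the comparisons ask which of these factors differ with the mutation and which differ after its correction.

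Initiation begins when eIF2, carrying GTP and the initiator tRNA, joins eIF1, eIF1A, eIF3 and eIF5 on the small ribosomal subunit, which scans the mRNA to a start codon. eIF2B reloads eIF2 with GTP, and kinases that sense stress phosphorylate the alpha subunit of eIF2 and so hold eIF2B back. In elongation eEF1A brings each aminoacyl-tRNA and eEF2 moves the ribosome along, while release factors and Abce1 end the round. Pluripotent stem cells are known for a lower rate of protein synthesis per cell than many of the cells they form.

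Levels are in CPM, the count of a gene relative to the TMM-scaled total of its line, with the libraries of a line summed. Lines held 41203436 to 73139465 estimated counts. Lepr itself had 0.718 and 0.606 CPM in corrected lines, 0.186 to 0.371 CPM in db/db lines and 0.348 to 0.460 CPM in control lines, and a gene total does not show the mutation. Summed markers of pluripotent cells (8 genes, among them Pou5f1 and Nanog) were at 5042 to 5085 CPM in corrected lines, 5797 to 6147 CPM in db/db lines and 5466 to 6004 CPM in control lines. Of these 8, 4 were called lower and 1 higher in corrected than in db/db lines. Nanog went against the sum, at 553 and 542 CPM in corrected and 384 to 428 CPM in db/db lines. The 12 markers of extraembryonic endoderm summed to 887 to 918 CPM in corrected, 510 to 640 CPM in db/db and 629 to 724 CPM in control lines, and 10 of them were called higher in corrected than in db/db lines. Over all genes tested 18.7% were called higher and 18% lower in that comparison. The 10 fibroblast markers summed to 280 to 335 CPM in corrected, 181 to 246 CPM in db/db and 331 to 438 CPM in control lines. Of 9 tested, 3 were called higher in corrected than in db/db lines, and 7 lower in db/db than in control lines (9.5% of all genes). For the 6 neural markers the sums were 36.9 to 38.1 CPM in corrected, 60.8 to 87.6 CPM in db/db and 86.2 to 119 CPM in control lines, and for the 7 trophoblast markers 53.3 to 54.0 CPM, 48.8 to 75.8 CPM and 41.7 to 66.9 CPM in corrected, db/db and control lines. In corrected against db/db lines 3 of 5 tested neural markers were called lower, and of 7 trophoblast markers 2 higher and 1 lower. No marker was at 0 in every line. Their part in the results on corrected lines was not tested, and in these bulk samples fewer cells of a type and less RNA per cell cannot be told apart. The second library of db/db line 2 stood apart: the variance of its counts was 187 times that of pure counting against its own duplicate and 240 and 257 times against the libraries of line 4, which has the same clone name. Every other pair of libraries from the 2 lines of a name was at 2.69 to 41.2 times, and libraries of different names within a group were at 80.4 to 300 times (median 93.2). Without that library 6 members were called in db/db against control lines, 32 in corrected against db/db lines and 31 in corrected against control lines, where the full data gave 5, 30 and 31. Shares of all genes without that library are not given here.

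Many mRNAs of the translation apparatus are known to begin with a tract of pyrimidines, through which growth signals control their use by ribosomes. RefSeq start sequences (build GRCm38.p6) were found for 44 of the 56 members. From 20 bases before to 50 bases after the RefSeq start, 13 of the 44 (29.5%) held a run of at least 8 pyrimidines beginning with C, read on the gene's own strand, against 20% of 27025 genes with such a sequence. The run was present in 5 of 10 eIF3 subunits, 2 of 4 elongation factors, 2 of 4 eIF2B subunits and 1 of 3 eIF2 subunits. Of the 13 members with a run, 6 were later called lower in corrected than in db/db lines, as were 15 of the 31 without one. CACGTG, which reads the same on both strands, stood within the 300 bases around the start of 9 members (20.5%) and of 7.24% of all genes. These are matches of letters, and the true start in these cells may lie elsewhere. Windows of 30 bases around the longest run show the spread among members, with the run in capitals. Each is read 5′ to 3′ on the gene's strand, from chrX:94212632-94212661 (-), chr19:60790644-60790673 (-), chr7:108934403-108934432 (+), chr15:79075216-79075245 (+), chr9:78481710-78481739 (-) and chrX:159372174-159372203 (+).
Eif2s3x: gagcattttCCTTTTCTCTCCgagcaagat
Eif3a: atcacgtggttCCTTCCTTTCCgtctctgg
Eif3f: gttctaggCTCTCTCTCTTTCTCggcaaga
Eif3l: ttcttcttccgCTCTCTCCCacgggcttct
Eef1a1: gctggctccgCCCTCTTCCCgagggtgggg
Eif1ax: gggcggggagaagCCCCgcccgctgccgcg
The runs have 12 bases in Eif2s3x, 11 in Eif3a, 15 in Eif3f, 9 in Eif3l and 10 in Eef1a1. Eif1ax, with 4, has none of the required length and is shown because it differed most between db/db and control lines.

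The members together took 3.18% and 3.19% of all counts in corrected lines, 3.07 to 3.41% in db/db lines and 2.79 to 3.40% in control lines. Per kilobase of transcript, so that genes can be set side by side, elongation factors stood highest. Eef1a1, the main carrier of aminoacyl-tRNA, was at 5841 ± 2.35 CPM per kilobase in corrected lines, 6708 ± 434 over the db/db lines and 5343 ± 1403 in control lines (SD, n = 2, 4 and 4). Eef2, the translocase, was next with 1519 ± 8.77 CPM per kilobase in corrected, 1590 ± 115 in db/db and 1678 ± 60.4 in control lines. The 14 eIF3 genes ranged in control lines from 15.9 (Eif3j1) to 397 (Eif3l) CPM per kilobase, and the 4 eIF2 kinases from 4.64 (Eif2ak2) to 16.6 (Eif2ak1). Eef1a2, the eEF1A form of muscle and neurons, and the methyltransferase Eef1akmt3 stayed under 1 CPM in every line. Reads of near copies limit 11 members, in which 20% or more of all 31-base words also occur in another gene: this share was 94.9% in Eif3j2, 53.6% in Eif3j1, 49% in Eef1a1, 47.5% in Eef1g and 40.2% in Eif3d.

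Between db/db and control lines few of the factors differed. Of the 56 members, 5 (8.93%) passed an adjusted p of 0.05 (edgeR, quasi-likelihood F-test, Benjamini-Hochberg) among all 19700 genes tested, of which 16.9% passed, 7.41% as higher and 9.5% as lower. Eif1ax, Eif2s2 and Eif2a rose and Eif3d and Eif2d fell in db/db lines. The median log2 fold change was 0.03 over the members and 0.03 over the 9148 genes averaging 10 CPM or more, a level that 52 members reach. In 8 of the 12 role groups (32 genes) edgeR called none, where 6 genes had an unadjusted p under 0.05 and DESeq2 and limma-voom each called 4. With the shared clone name as the unit (2 names a group), 0.161% of all genes passed, and of the 5 calls that of Eif1ax alone remained. Eif2a and Eif3d lie on chromosomes whose genes differ as a whole between clone names.

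**Figure D1:**
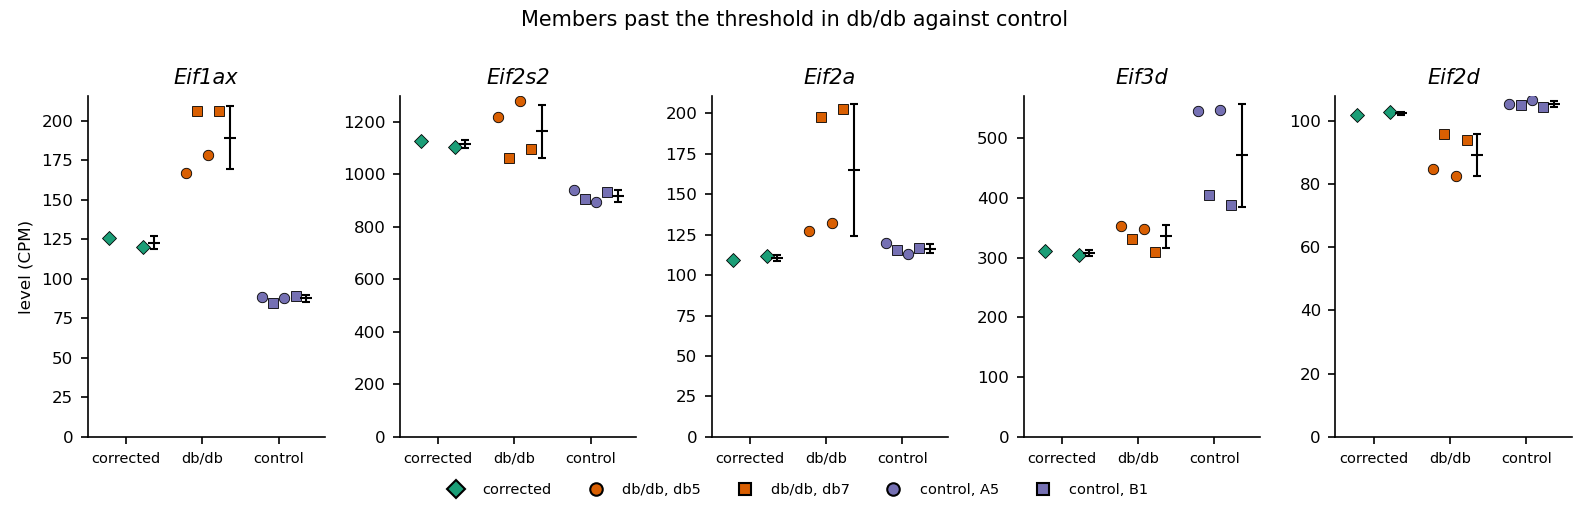
Level (CPM, linear axis from 0) of the 5 members called in db/db against control lines, by group; each point is a line, with its shape giving the clone name, and the bar is the mean ± SD over lines (n = 2 corrected, 4 db/db, 4 control). Eif1ax was at 167 to 206 CPM in db/db lines and 84.7 to 89.0 CPM in control lines, while in Eif2a the db7 lines stand above the db5 lines.

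In corrected lines a larger share of the members differed, most of them downward. Against db/db lines 30 of 56 (53.6%) were called, 28 lower and 2 higher, where 36.7% of all genes were called (18% lower and 18.7% higher). Against control lines 31 (55.4%) were called, 29 lower and 2 higher, where 33.2% of all genes were called (17% lower and 16.2% higher). Among genes averaging 10 CPM or more, 30.6% were called lower against db/db lines and 26.9% against control lines. The members' median log2 fold change was -0.23 against db/db and -0.24 against control lines, beside -0.12 and -0.09 for genes of at least 10 CPM. Both comparisons use the same 2 corrected lines: 26 members were lower against both groups, 2 against db/db lines only and 3 against control lines only, and edgeR called 22 members in none of the 3 comparisons. Of those 22, DESeq2 called 9 and limma-voom 7 in at least 1 comparison. The corrected lines lay below every db/db line in 38 members (28.8% of all genes) and below every control line in 37 (30.4%). Among the 9148 genes of at least 10 CPM this held for 4098 against db/db lines and for 4023 against control lines. Falls among called members were 1.14-fold to 2.44-fold against db/db lines.

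These counts depend on scaling and on the few lines. TMM factors were 1.09 in both corrected lines and 0.946 to 1.01 in the others, so scaling by library size alone put the median of all genes at 0.19 against db/db lines (0.02 with TMM) and at 0.12 against control lines (-0.01 with TMM). The members' medians were then -0.05 and -0.11, below those of all genes. Most members are genes of at least 10 CPM, which with TMM had medians of -0.12 and -0.09, so the sets are not matched in level. At library size alone 18 members (4 higher, 14 lower) and 16 (4 higher, 12 lower) were called. The share of all genes called there, and the median of genes of at least 10 CPM, are not given here. With shared clone names as the unit, 18 calls against db/db lines (15.5% of all genes passed) and 8 against control lines (12.1%) remained. Against db/db lines those of Eef1g, Eif1, Eif2a, Eif2ak3, Eif2b2, Eif2d, Eif2s3x, Eif3a, Eif3b, Eif3c, Eif3f and Eif3m ended. Against control lines only those of Eef1akmt1, Eef1akmt4, Eef1e1, Eif1ad, Eif1ax, Eif2ak2, Eif5a and Eif6 remained. Without corrected line 1 the counts were 17 and 8, and without corrected line 2 they were 15 and 5, with the lone corrected line assumed to vary like the others.

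**Figure D2:**
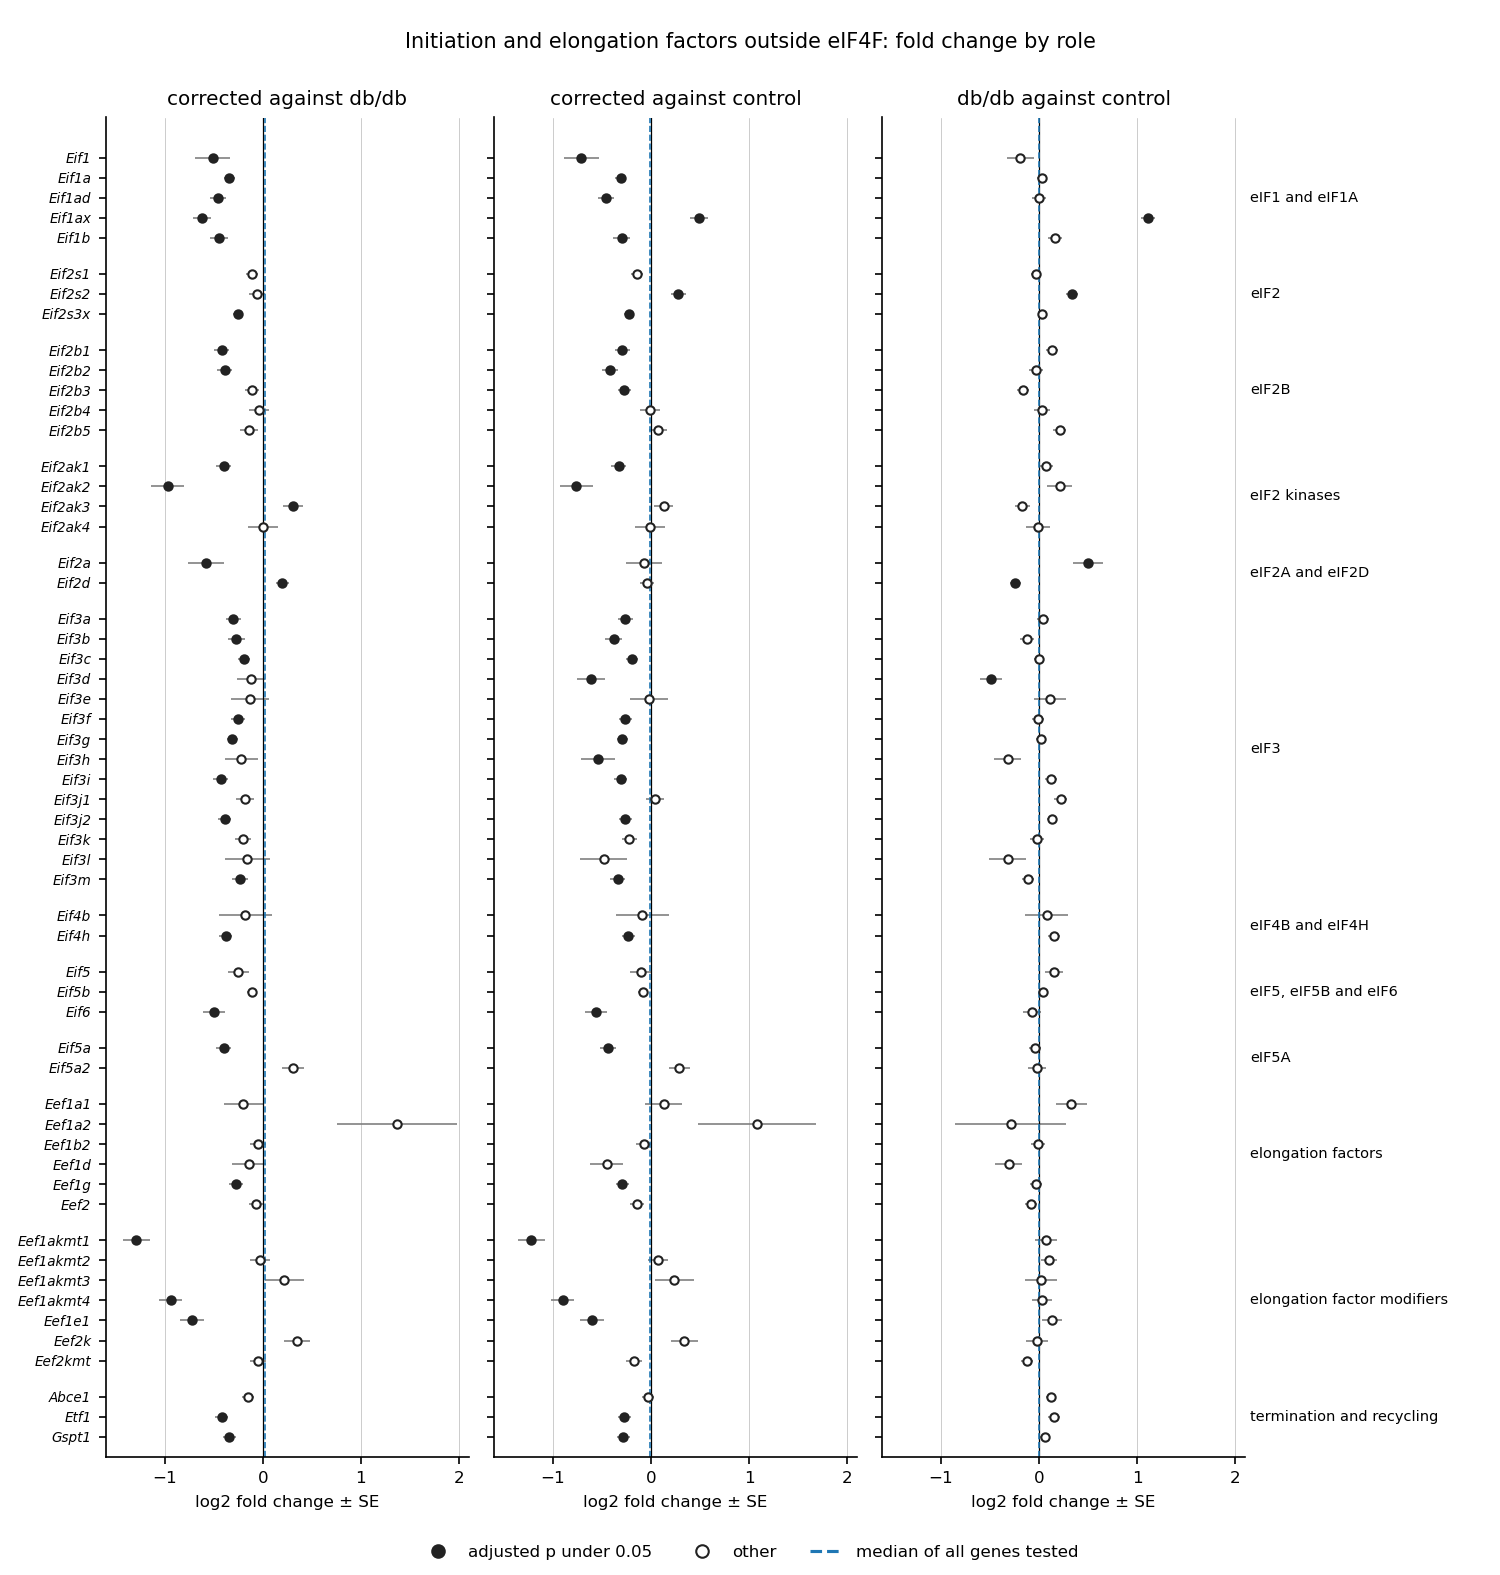
Log2 fold change ± SE from the edgeR fit (horizontal axis) of all 56 members, grouped by role from top to bottom, in 3 comparisons; filled points passed an adjusted p of 0.05 and the dashed line is the median of all 19700 genes. Filled points lie mostly left of 0 in both comparisons of corrected lines (28 and 29 lower, 2 and 2 higher; 14 and 12 lower with library size alone), and 5 stand in db/db against control.

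eIF1 and eIF1A keep the scanning ribosome open until a start codon is met. Eif1ax, the X-linked gene of eIF1A (chrX:159372178-159389928, plus strand, GRCm38), had 126 and 119.8 CPM in corrected lines 1 and 2, against 167, 206, 178 and 206 CPM across db/db lines 1 to 4 and 88.5, 84.7, 87.9 and 89 CPM across control lines 1 to 4. The 3 groups were apart, with db/db lines highest, corrected lines between and control lines lowest. The log2 fold change was 1.11 ± 0.07 (SE, adjusted p = 2.56e-05) in db/db against control lines, -0.62 ± 0.09 (SE, adjusted p = 0.000807) in corrected against db/db lines and 0.49 ± 0.09 (SE, adjusted p = 0.00265) in corrected against control lines. All 3 calls remained with shared clone names (adjusted p = 0.039, 0.0223 and 0.0415) and without any 1 line. Genes of chromosome X as a whole had a median log2 difference of 0.14 between db/db and control clones. Eif1a, the autosomal gene of the same factor, had 208 and 205 CPM in corrected lines 1 and 2, against 245, 261, 257 and 278 CPM across db/db lines 1 to 4 and 266, 243.5, 257 and 256 CPM across control lines 1 to 4. Here db/db and control lines overlapped and both corrected lines were lowest. Eif1a stood at log2 fold changes of -0.34 ± 0.06 (SE, adjusted p = 0.003) against db/db and -0.31 ± 0.06 (SE, adjusted p = 0.00518) against control lines, a call that ended without either corrected line (0.0549 and 0.0645).

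Eif1ad codes for a protein with an eIF1A-like domain, which in human cells takes part in maturing the small ribosomal subunit. It had 60.7 and 61.9 CPM in corrected lines 1 and 2, against 84.4, 85.6, 86.2 and 81.9 CPM across db/db lines 1 to 4 and 92.5, 77.4, 89.6 and 77.6 CPM across control lines 1 to 4. Corrected lines were below all others, with log2 fold changes of -0.46 ± 0.08 (SE, adjusted p = 0.00244) and -0.46 ± 0.08 (SE, adjusted p = 0.00295) against db/db and control lines. Eif1b, a close relative of eIF1, had 16.9 and 15.3 CPM in corrected lines 1 and 2, against 22.5, 23.7, 21.7 and 20.6 CPM across db/db lines 1 to 4 and 20.3, 19.7, 18.7 and 20.6 CPM across control lines 1 to 4. It fell in corrected lines, with log2 fold changes of -0.45 ± 0.09 (SE, adjusted p = 0.00339) against db/db and -0.30 ± 0.09 (SE, adjusted p = 0.0261) against control lines. Of these calls the first ended without corrected line 2 (adjusted p = 0.0626) and the second without either corrected line or control line 1 or 4 (0.0522 to 0.256). Eif1 itself followed the clone name within db/db: it had 318 and 317 CPM in corrected lines 1 and 2, against 537, 379, 552 and 345 CPM across db/db lines 1 to 4 and 540.4, 498, 536 and 499 CPM across control lines 1 to 4. The db7 lines stood between the corrected and the db5 lines, and the fold change against db/db lines was -0.51 ± 0.18 (SE, adjusted p = 0.0432). That call ended without either corrected line, db/db line 1 or 3 or any 1 control line (adjusted p = 0.0556 to 0.184), while that against control lines, -0.71 ± 0.18 (SE, adjusted p = 0.0131), ended without either corrected line (adjusted p = 0.0985 and 0.0987) and with no other line left out.

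Of the 3 subunits of eIF2, the beta subunit Eif2s2 (chr2:154871410-154892935, minus strand) was called in db/db against control lines. It had 1127 and 1105 CPM in corrected lines 1 and 2, against 1218, 1062, 1278 and 1098 CPM across db/db lines 1 to 4 and 940.3, 904, 893 and 932.5 CPM across control lines 1 to 4. Every db/db and corrected line was above every control line, and corrected and db/db lines overlapped. Eif2s2 rose in db/db lines by 0.34 ± 0.06 (SE, adjusted p = 0.00669) and in corrected lines by 0.28 ± 0.08 (SE, adjusted p = 0.0187) against control lines, and the difference of corrected from db/db lines was -0.06 ± 0.08 (SE, adjusted p = 0.57). With shared clone names neither call passed (adjusted p = 0.198 and 0.106), and the second also ended without either corrected line (0.0983 and 0.122). Eif2s3x, the gamma subunit that binds GTP and the initiator tRNA, had 595 and 590.2 CPM in corrected lines 1 and 2, against 702.5, 697, 720.2 and 694 CPM across db/db lines 1 to 4 and 708, 668.5, 689 and 689.9 CPM across control lines 1 to 4. Only the corrected lines stood apart. Eif2s3x had log2 fold changes of -0.25 ± 0.05 (SE, adjusted p = 0.00431) and -0.22 ± 0.05 (SE, adjusted p = 0.00912) against db/db and control lines. Those calls ended without either corrected line (adjusted p = 0.052 to 0.102), and its processed copy Gm2223 had 52.3 and 54.6 CPM in corrected, 19.3 to 61.6 CPM in db/db and 23.5 to 33.6 CPM in control lines. The alpha subunit Eif2s1, the target of the kinases, was called by edgeR in no comparison (by DESeq2 at adjusted p = 0.0498 in corrected against db/db and 0.0229 in corrected against control lines), with log2 fold changes of -0.03 in db/db against control and -0.11 and -0.14 in corrected against db/db and control lines. The median log2 fold change of the 3 subunits was -0.11 in corrected against db/db lines (0.06 with library size alone) and -0.14 against control lines. Genes of at least 10 CPM had medians of -0.12 and -0.09, with 30.6% and 26.9% called lower.

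eIF2B, the exchange factor of eIF2, had none of 5 subunits called by edgeR in db/db against control lines (2 at an unadjusted p under 0.05, 1 called by DESeq2 and 1 by limma-voom), with log2 fold changes from -0.16 to 0.21. In corrected lines its regulatory subunits Eif2b1 (alpha) and Eif2b2 (beta) fell against both groups. Eif2b1 had 68.2 and 68.6 CPM in corrected lines 1 and 2, against 92.4, 93.2, 92.2 and 87.8 CPM across db/db lines 1 to 4 and 88.6, 77.2, 90.4 and 77.8 CPM across control lines 1 to 4. Both corrected lines were lowest. The log2 fold changes of Eif2b1 were -0.42 ± 0.08 (SE, adjusted p = 0.00293) against db/db and -0.29 ± 0.08 (SE, adjusted p = 0.0189) against control lines. Eif2b2 had 47.6 and 45.6 CPM in corrected lines 1 and 2, against 65.9, 59.3, 65.1 and 54.2 CPM across db/db lines 1 to 4 and 62, 62.6, 64.2 and 60 CPM across control lines 1 to 4. No line of another group reached the corrected ones, and the fold changes were -0.39 ± 0.08 (SE, adjusted p = 0.00596) and -0.42 ± 0.08 (SE, adjusted p = 0.00503). The gamma subunit Eif2b3, which belongs to the catalytic part, had 49.3 and 48.8 CPM in corrected lines 1 and 2, against 55, 50.7, 56.8 and 48.6 CPM across db/db lines 1 to 4 and 60.9, 58.3, 58.2 and 58.6 CPM across control lines 1 to 4. It overlapped with db/db line 4 and fell against control lines only, at a log2 fold change of -0.27 ± 0.07 (SE, adjusted p = 0.0204), against -0.11 ± 0.07 (SE, adjusted p = 0.285) for db/db lines. The delta subunit Eif2b4 and the catalytic epsilon subunit Eif2b5 were called by edgeR in no comparison, at -0.04 and -0.14 in corrected against db/db lines. Eif2b5 was the subunit that DESeq2 (adjusted p = 0.0366) and limma-voom (0.0275) called in db/db against control lines. Over the 5 subunits the median was -0.14 against db/db lines (0.04 with library size alone) and -0.27 against control lines. Beside these stand -0.12 and -0.09 for genes of at least 10 CPM, of which 30.6% and 26.9% were called lower. The Eif2b1 and Eif2b3 calls against control lines ended without either corrected line (adjusted p = 0.12 to 0.155), and both Eif2b2 calls ended without corrected line 2 (0.0738 and 0.075).

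The 4 kinases of eIF2 alpha did not move together. Eif2ak2 codes for PKR, which senses viral RNA, and had 11.8 and 11.9 CPM in corrected lines 1 and 2, against 17.9, 24.2, 21 and 29.7 CPM across db/db lines 1 to 4 and 21.2, 19.6, 19.6 and 19.6 CPM across control lines 1 to 4. Corrected lines were below the rest. Eif2ak2 stood at log2 fold changes of -0.97 ± 0.17 (SE, adjusted p = 0.00214) and -0.76 ± 0.17 (SE, adjusted p = 0.00805) against db/db and control lines, and db/db lines varied most. Eif2ak1, the kinase HRI that senses haem, had 57 and 57.2 CPM in corrected lines 1 and 2, against 69.4, 81.8, 70.5 and 79.7 CPM across db/db lines 1 to 4 and 69.8, 76.3, 69.8 and 72.1 CPM across control lines 1 to 4. It too fell in corrected lines. Eif2ak1 had log2 fold changes of -0.40 ± 0.08 (SE, adjusted p = 0.00467) and -0.33 ± 0.08 (SE, adjusted p = 0.0122). Eif2ak3, the endoplasmic reticulum kinase PERK, had 43.3 and 42.9 CPM in corrected lines 1 and 2, against 36.9, 30.8, 37.9 and 33.8 CPM across db/db lines 1 to 4 and 36.1, 43.4, 36.9 and 40.8 CPM across control lines 1 to 4. The corrected lines lay above all db/db lines, with a rise of 0.31 ± 0.10 (SE, adjusted p = 0.0394), but overlapped with control lines, with 0.13 ± 0.10 (SE, adjusted p = 0.343). Eif2ak4, the amino acid sensor GCN2, stood at 0.00 and -0.01 and was called by none of the 3 tools. In db/db against control lines none of the 4 was called by edgeR, DESeq2 or limma-voom, nor had an unadjusted p under 0.05. The PERK call ended without either corrected line, db/db line 2 or 4 or control line 4 (adjusted p = 0.0509 to 0.181). The HRI call against db/db lines ended without corrected line 1 (0.0519), and the HRI and PKR calls against control lines ended without either corrected line (0.0688 to 0.103).

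Eif2a and Eif2d code for proteins that can bring initiator tRNA to the ribosome without eIF2, and they went opposite ways in db/db lines. Eif2a (chr3:58525821-58557501, plus strand) had 109 and 112 CPM in corrected lines 1 and 2, against 127, 197.5, 132 and 203 CPM across db/db lines 1 to 4 and 120.0, 116, 113 and 117 CPM across control lines 1 to 4. The excess in db/db lay mostly in the db7 lines, at a mean of 200.2 CPM, against 129.7 CPM in the db5 lines and 116.4 CPM in both control clones. The rise in db/db against control lines was 0.50 ± 0.15 (SE, adjusted p = 0.0419) and the fall in corrected against db/db lines was -0.58 ± 0.18 (SE, adjusted p = 0.0328). Genes of chromosome 3 had median log2 differences of 0.30 in db7 against db5 and 0.32 in db/db against control clones. In corrected lines these genes had medians of -0.57 against db7 and -0.24 against db5. The rise ended in 14 of 27 alternatives, among them leaving out db/db line 2 or 4, either corrected line or any 1 control line (adjusted p = 0.0624 to 0.105), and the fall ended without db/db line 2 or 4 or either corrected line (0.0553 to 0.164). Eif2d (chr1:131153181-131187658, plus strand) had 102 and 103 CPM in corrected lines 1 and 2, against 84.8, 95.8, 82.5 and 93.9 CPM across db/db lines 1 to 4 and 105, 105, 107 and 104 CPM across control lines 1 to 4. Every db/db line was below every line of the other groups, at a log2 fold change of -0.24 ± 0.06 (SE, adjusted p = 0.0203) against control lines, and corrected lines were higher than db/db lines by 0.20 ± 0.07 (SE, adjusted p = 0.0479). The fall in db/db lines ended without the B1 lines and with shared names (adjusted p = 0.279), and the rise in corrected lines ended without either corrected line, db/db line 1 or 3 or any 1 control line (0.0552 to 0.204).

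eIF3 is the large scaffold of initiation that holds the small subunit open for mRNA. Of its 14 genes, 8 fell in corrected against db/db lines and 10 against control lines, and none rose; the medians were -0.23 and -0.28 (-0.05 and -0.15 with library size alone). Over all genes 18% were called lower against db/db and 17% against control lines, and 30.6% and 26.9% of those of at least 10 CPM. In 13 of the 14 both corrected lines were below every db/db line, as in 28.8% of all genes and in 4098 of the 9148 of at least 10 CPM. In db/db against control lines the median was -0.01 and 1 of 14 was called. Eif3i, of the module that also holds Eif3b and Eif3g, had 158 and 162 CPM in corrected lines 1 and 2, against 229, 209, 229.9 and 193.5 CPM across db/db lines 1 to 4 and 193.5, 202, 201.5 and 196.5 CPM across control lines 1 to 4. It was lower in both corrected lines than anywhere else. The log2 fold changes of Eif3i were -0.43 ± 0.08 (SE, adjusted p = 0.00208) and -0.31 ± 0.07 (SE, adjusted p = 0.0111) against db/db and control lines. Eif3g, the subunit that binds RNA in that module, had 172 and 167 CPM in corrected lines 1 and 2, against 214, 216, 214 and 198 CPM across db/db lines 1 to 4 and 212, 206, 208 and 202 CPM across control lines 1 to 4. Its fall was -0.31 ± 0.06 (SE, adjusted p = 0.00248) and -0.29 ± 0.06 (SE, adjusted p = 0.00432). Eif3b, the core of the module, had 486.5 and 468 CPM in corrected lines 1 and 2, against 628, 545, 616 and 507 CPM across db/db lines 1 to 4 and 643, 619, 632 and 599.9 CPM across control lines 1 to 4. The fall against control lines, -0.38 ± 0.09 (SE, adjusted p = 0.00851), came with corrected lines below all others, and against db/db lines it was -0.27 ± 0.09 (SE, adjusted p = 0.0367), with db/db line 4 nearest. Eif3j2, 1 of 2 genes of the loosely bound subunit, had 69 and 69.5 CPM in corrected lines 1 and 2, against 88.1, 90.4, 92.1 and 91.4 CPM across db/db lines 1 to 4 and 88.5, 78.2, 85.9 and 79 CPM across control lines 1 to 4. It fell, with log2 fold changes of -0.39 ± 0.07 (SE, adjusted p = 0.0019) and -0.26 ± 0.07 (SE, adjusted p = 0.0143), while the copy Eif3j1, which shares most of its words, was not called by edgeR in corrected lines (-0.18 and 0.04), and how reads were divided between the pair is uncertain.

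Among the other eIF3 subunits, Eif3a, Eif3c, Eif3f and Eif3m fell against both groups, with log2 fold changes of -0.19 to -0.30 against db/db lines and -0.19 to -0.34 against control lines. Eif3d, the subunit able to bind the caps of some mRNAs, was called in db/db against control lines (chr15:77958998-77970813, minus strand). It had 311.5 and 304 CPM in corrected lines 1 and 2, against 353, 331, 348 and 310.0 CPM across db/db lines 1 to 4 and 545, 405, 546 and 388 CPM across control lines 1 to 4. All db/db and corrected lines were below all control lines. Eif3d stood at log2 fold changes of -0.49 ± 0.11 (SE, adjusted p = 0.0188) and -0.61 ± 0.14 (SE, adjusted p = 0.00991), while corrected and db/db lines overlapped (-0.12). Control lines were themselves split, with the A5 lines at a mean of 545.5 CPM and the B1 lines at 396 CPM. The db/db call ended with shared names (adjusted p = 0.232) and without the db7 lines. Eif3h fell against control lines only, at a log2 fold change of -0.54 ± 0.17 (SE, adjusted p = 0.0334), and edgeR called Eif3e, Eif3k and Eif3l in no comparison. Eif3k was called in corrected against db/db and control lines by DESeq2 (adjusted p = 0.0367 and 0.0283) and limma-voom (0.0242 and 0.0143). Without either corrected line, or with shared names, no eIF3 call against control lines remained except that of Eif3g without corrected line 1, and those of Eif3a, Eif3c and Eif3h ended without control line 1 or 3 as well (0.0559 to 0.179). Against db/db lines, those of Eif3g, Eif3i and Eif3j2 remained without any 1 line and with shared names, and the others ended without either corrected line (adjusted p = 0.0515 to 0.238 over all lines that ended them). Those of Eif3b and Eif3m also ended without db/db line 1 or 3 or control line 1, 2 or 3, and that of Eif3f without db/db line 1, 2 or 3.

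**Figure D3:**
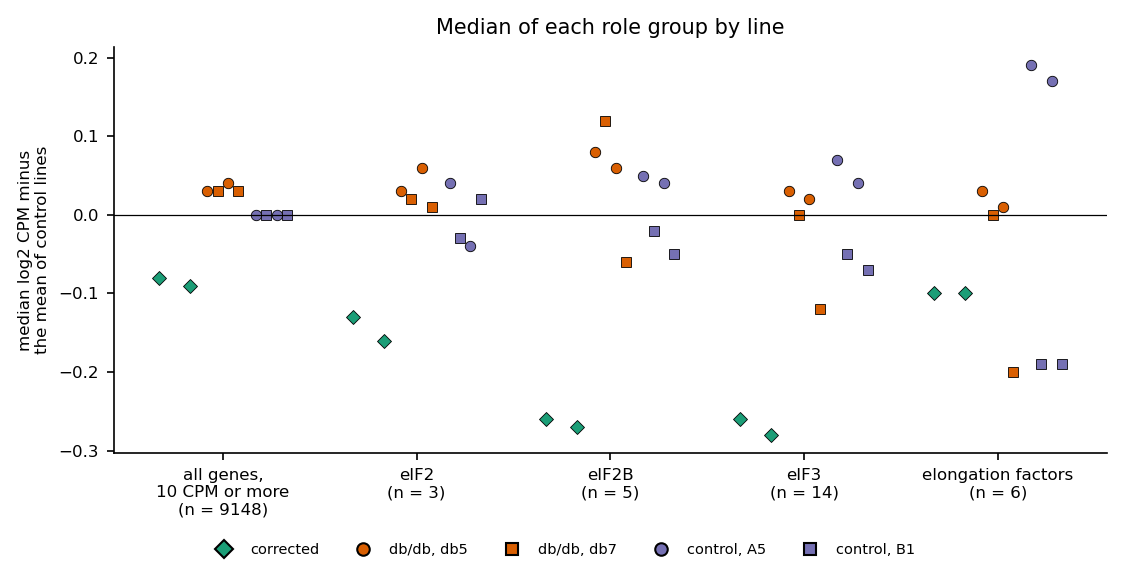
Median over the genes of a group of log2 CPM minus its mean in control lines (vertical axis), for genes of at least 10 CPM and 4 role groups; each point is a line, coloured by group and shaped by clone name. Corrected lines were at -0.26 and -0.27 in eIF2B and -0.26 and -0.28 in eIF3, beside -0.08 and -0.09 for all genes of at least 10 CPM, and elongation factors differ between the control clones (0.19 and 0.17 in A5, -0.19 in both B1 lines). Scaling by library size alone put the medians of eIF2, eIF2B and elongation factors in corrected against db/db lines above 0.

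Helpers and later steps of initiation gave single calls. Eif4h, a cofactor of the helicase eIF4A, had 305 and 309.7 CPM in corrected lines 1 and 2, against 404.5, 401, 413 and 383 CPM across db/db lines 1 to 4 and 379, 343.5, 386 and 334 CPM across control lines 1 to 4. It fell in corrected lines, with log2 fold changes of -0.38 ± 0.07 (SE, adjusted p = 0.00287) and -0.23 ± 0.07 (SE, adjusted p = 0.0311), and the second call ended without either corrected line or control line 1 or 3 (adjusted p = 0.0689 to 0.194). Eif6, which keeps the large subunit from joining too early, had 100.2 and 101 CPM in corrected lines 1 and 2, against 159.7, 132, 156 and 121 CPM across db/db lines 1 to 4 and 152, 146, 158 and 139.6 CPM across control lines 1 to 4. Corrected lines were below all others. Eif6 had log2 fold changes of -0.50 ± 0.11 (SE, adjusted p = 0.00706) against db/db and -0.56 ± 0.11 (SE, adjusted p = 0.00452) against control lines, and both calls remained with shared names and ended without either corrected line (0.0513 to 0.0684). Eif5, which makes eIF2 hydrolyse GTP, and Eif5b, which joins the large subunit, were not called by edgeR, at -0.25 and -0.11 against db/db lines. There DESeq2 called Eif5b (adjusted p = 0.0019) and limma-voom called Eif5 (0.0453).

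eIF5A, the hypusine-bearing factor that helps ribosomes through difficult stretches, was next to the elongation factors in level. Eif5a had 913 and 903 CPM in corrected lines 1 and 2, against 1277, 1197, 1252 and 1051 CPM across db/db lines 1 to 4 and 1268, 1208, 1244.5 and 1198 CPM across control lines 1 to 4. Both corrected lines were below every other line, the nearest being db/db line 4, with falls of -0.40 ± 0.08 (SE, adjusted p = 0.00389) and -0.44 ± 0.08 (SE, adjusted p = 0.00275) against db/db and control lines. These calls remained without any 1 line and with shared names (adjusted p = 0.0371 and 0.0354). Its relative Eif5a2, at 12.8 to 19.1 CPM, lay higher in both corrected lines than in any other line but was not called by edgeR (0.31 ± 0.11 (SE, adjusted p = 0.054) and 0.29 ± 0.11 (SE, adjusted p = 0.0752)). DESeq2 called it against db/db lines (adjusted p = 0.0463), and limma-voom against both groups (0.03 and 0.0411).

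The elongation factors gave few calls. In db/db against control lines edgeR called none of 6 (1 at an unadjusted p under 0.05, none by DESeq2 and 2 by limma-voom), and 1 of 6, Eef1g, was called by edgeR in corrected lines, where the medians were -0.11 against db/db and -0.10 against control lines (0.07 and 0.03 with library size alone). Eef1g, the gamma subunit of the factor that recharges eEF1A, had 1293 and 1258 CPM in corrected lines 1 and 2, against 1596, 1548, 1623 and 1371 CPM across db/db lines 1 to 4 and 1601, 1524, 1607 and 1525 CPM across control lines 1 to 4. It fell, with log2 fold changes of -0.27 ± 0.07 (SE, adjusted p = 0.0184) and -0.29 ± 0.07 (SE, adjusted p = 0.0133), with corrected lines below the rest. Both calls ended without either corrected line, and with shared names (edgeR adjusted p = 0.0808 and 0.07). Eef2 stood at -0.07 ± 0.07 (SE, adjusted p = 0.515) against db/db lines and Eef1b2, another exchange subunit, at -0.05 ± 0.08 (SE, adjusted p = 0.652). Eef1a1 was at -0.20 ± 0.20 (SE, adjusted p = 0.451) and Eef1d at -0.14 ± 0.17 (SE, adjusted p = 0.526), both with wide errors. Eef1d was called in corrected against control lines by DESeq2 (adjusted p = 0.0334) and limma-voom (0.0108), but not by edgeR (0.0647). The medians against db/db lines were -0.11 in eIF2, -0.14 in eIF2B and -0.23 in eIF3. Over all genes of at least 10 CPM the medians were -0.12 against db/db and -0.09 against control lines, with 30.6% and 26.9% called lower. Differences between role groups were not tested.

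Enzymes acting on the elongation factors held the largest fall among the members, that of Eef1akmt1, in both comparisons of corrected lines. Eef1akmt1, a lysine methyltransferase of eEF1A, had 4.51 and 4.88 CPM in corrected lines 1 and 2, against 11.7, 12.6, 10.8 and 10.7 CPM across db/db lines 1 to 4 and 12.2, 9.67, 12.1 and 9.74 CPM across control lines 1 to 4. The corrected lines were below every other line. The log2 fold changes of Eef1akmt1 were -1.29 ± 0.14 (SE, adjusted p = 0.000216) and -1.22 ± 0.14 (SE, adjusted p = 0.000347) against db/db and control lines. Eef1akmt4, another such enzyme, had 6.43 and 6.08 CPM in corrected lines 1 and 2, against 12.6, 12.4, 12.7 and 10.2 CPM across db/db lines 1 to 4 and 10.7, 12.5, 11.6 and 11.9 CPM across control lines 1 to 4. Again no line overlapped with the corrected ones, and the fold changes were -0.94 ± 0.12 (SE, adjusted p = 0.000466) and -0.90 ± 0.12 (SE, adjusted p = 0.000684). It shares 31.2% of its 31-base words with other genes, among them Alg3, which had 23.4 and 23.8 CPM in corrected, 22.5 to 28.0 CPM in db/db and 25.5 to 26.5 CPM in control lines. Eef1e1, a small scaffold protein of the complex of aminoacyl-tRNA synthetases, had 61.3 and 57.6 CPM in corrected lines 1 and 2, against 104.5, 90.8, 108 and 89.3 CPM across db/db lines 1 to 4 and 99.8, 78.6, 98.4 and 83.1 CPM across control lines 1 to 4. Its log2 fold changes were -0.72 ± 0.12 (SE, adjusted p = 0.00165) and -0.60 ± 0.12 (SE, adjusted p = 0.00488). The calls of these 3 genes remained with shared names, and without any 1 line but that of Eef1e1 against control lines without corrected line 2 (adjusted p = 0.0656). Eef2k, the kinase that halts eEF2, was not called by edgeR, with 0.35 ± 0.13 (SE, adjusted p = 0.0645) against db/db lines, nor were Eef1akmt2, Eef1akmt3 and Eef2kmt. Eef2k was called by limma-voom against both groups (adjusted p = 0.0161 and 0.0142), and Eef2kmt by DESeq2 against control lines (0.0221). The role group counts Eef1e1 with these enzymes, although it is a scaffold protein. In db/db against control lines the 7 genes of the group lay between -0.12 and 0.13 (Eef1e1) and none was called by any of the 3 tools or had an unadjusted p under 0.05.

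**Figure D4:**
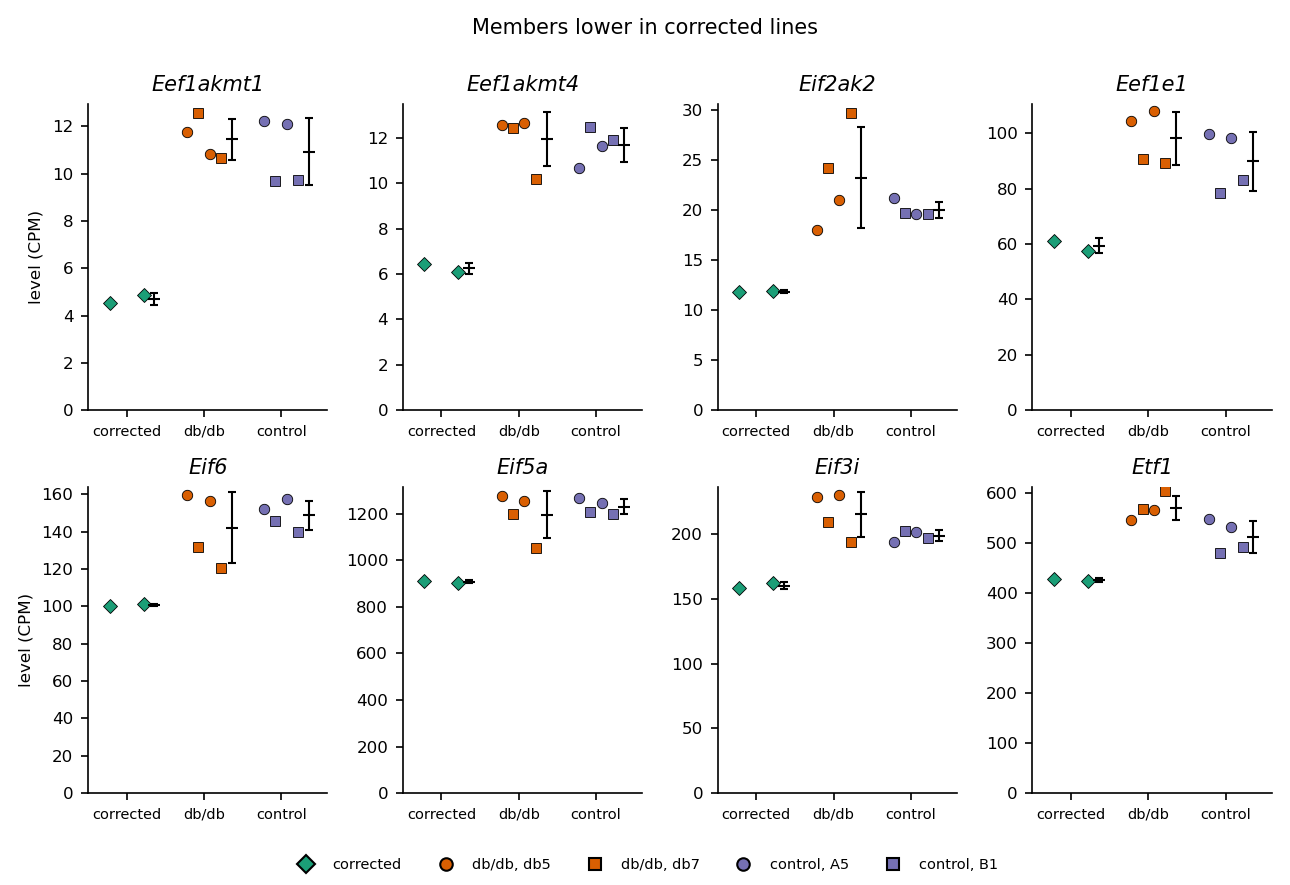
Level (CPM, linear axes from 0) by group of 8 members that were lower in corrected lines; each point is a line, its shape gives the clone name, and the bar is the mean ± SD over lines (n = 2 corrected, 4 db/db, 4 control). In each panel both corrected lines lie below the lowest line of the other groups: Eef1akmt1 at 4.51 and 4.88 CPM, against at least 9.67 CPM, and Eif5a at 913 and 903 CPM, against at least 1051 CPM.

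Release of the finished chain gave calls in corrected lines too. Etf1, the factor eRF1 that reads stop codons, had 429 and 424 CPM in corrected lines 1 and 2, against 546, 569, 566 and 604 CPM across db/db lines 1 to 4 and 548, 479.9, 532 and 493 CPM across control lines 1 to 4. It fell, with log2 fold changes of -0.42 ± 0.07 (SE, adjusted p = 0.00157) against db/db and -0.27 ± 0.07 (SE, adjusted p = 0.0155) against control lines, with no overlap. Gspt1, its GTPase partner eRF3, had 252 and 244 CPM in corrected lines 1 and 2, against 331, 291, 332 and 306 CPM across db/db lines 1 to 4 and 313, 292, 305 and 295.5 CPM across control lines 1 to 4. Corrected lines were again lowest. Gspt1 stood at log2 fold changes of -0.34 ± 0.07 (SE, adjusted p = 0.00385) and -0.28 ± 0.07 (SE, adjusted p = 0.0115). Abce1, which splits ribosomes for another round, was not called by edgeR (-0.15 and -0.03), while DESeq2 called it in corrected against db/db (adjusted p = 0.00891) and in db/db against control lines (0.038). Calls against control lines ended without either corrected line (adjusted p = 0.0802 to 0.127), as did that of Gspt1 against db/db lines without corrected line 2 (0.0565).

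Some members differed more between clone names of a group than between groups. The members named here were chosen after their values were seen, and these are descriptions with no test. The 6 members on chromosome 15 (Eif3d, Eif3e, Eif3h, Eif3l, Eif4b and Eef1d) were all higher in A5 than in B1 control lines, by 0.46 to 0.83 on the log2 scale, and the 368 genes of at least 10 CPM on that chromosome had a median of 0.45 between the same clones. Eif3l had 556.5 and 549 CPM in corrected lines 1 and 2, against 641, 626, 625 and 586 CPM across db/db lines 1 to 4 and 987, 559, 986 and 550.3 CPM across control lines 1 to 4. Its A5 lines stood above all others. Eif4b, the cofactor that speeds unwinding by eIF4A, had 984 and 989 CPM in corrected lines 1 and 2, against 1364, 835, 1377 and 881 CPM across db/db lines 1 to 4 and 1318, 809, 1278 and 799.7 CPM across control lines 1 to 4. High and low lines occurred in both genotypes, with means of 1370.4 CPM in db5 and 858 CPM in db7, and 1298 CPM in A5 and 804 CPM in B1, and corrected lines lay between. Eif3e was high in A5 (mean 283.5 CPM) and low in B1 (179 CPM), with corrected lines at 228 CPM: without the A5 lines its log2 fold change against control lines was 0.35, against -0.02 with them.

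Eef1a1, on chromosome 9 (chr9:78478449-78489151, minus strand), had 10482.5 and 10476.5 CPM in corrected lines 1 and 2, against 12836, 11546, 12544.5 and 11213 CPM across db/db lines 1 to 4 and 11875, 7465, 11651.5 and 7352.5 CPM across control lines 1 to 4. Its B1 lines were low, at a mean of 7408.5 CPM against 11763 CPM in A5, where genes of chromosome 9 had a median difference of 0.04. Eef1a1 has many processed copies, and reads can be divided among them. The copy Gm13456 had 0.966 and 1.10 CPM in corrected lines and 1.34 to 1.58 CPM in db/db lines, against 37.5 to 52.1 CPM in control lines, with the A5 lines (37.5 and 47.8 CPM) below the B1 lines (51.9 and 52.1 CPM). Over the 52 members averaging 10 CPM or more the median absolute difference was 0.11 between A5 and B1 and 0.15 between db7 and db5, beside 0.16 and 0.17 over 9148 genes of that level. It was over 0.5 in 6 members (11.5%) and 3 members (5.77%), beside 13.1% and 12.7% of those genes.

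**Figure D5:**
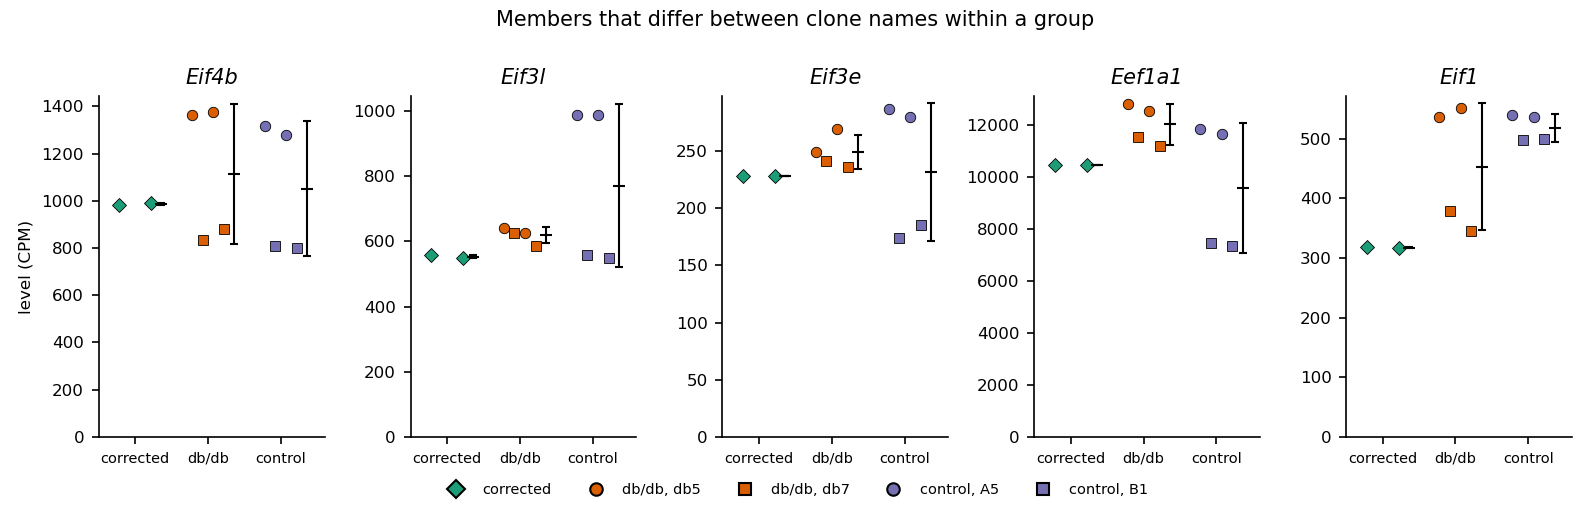
Level (CPM, linear axes from 0) by group of 5 members that differed between clone names; each point is a line, circles are A5 or db5, squares B1 or db7, and the bar is the mean ± SD over lines (n = 2 corrected, 4 db/db, 4 control). In Eif4b the circles lie at 1278 to 1377 CPM and the squares at 799.7 to 881 CPM in both genotypes, and in Eef1a1 the B1 lines (7465 and 7352.5 CPM) are lowest.

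Lists of other translation genes give the surroundings, and their counts stand beside the shares of all genes given above: in corrected lines 18% were lower and 18.7% higher against db/db lines, and 17% lower and 16.2% higher against control lines. In db/db against control lines 7.41% were higher and 9.5% lower. Most listed genes average 10 CPM or more. Of all genes at that level 30.6% were lower and 14.5% higher in corrected against db/db lines. Against control lines 26.9% were lower and 15% higher. In db/db against control lines 11% were higher and 7.28% lower. Of 12 genes of eIF4F and its inhibitors, 2 rose and 1 fell in db/db against control lines, and 2 rose and 5 fell in corrected against db/db lines, with 1 and 6 against control lines. Eif4e, the cap-binding protein, averaged 166.6 ± 0.897 CPM in corrected, 406 ± 71.3 CPM in db/db and 236 ± 34.1 CPM in control lines (SD, n = 2, 4 and 4), with log2 fold changes of 0.78 ± 0.13 in db/db against control (adjusted p = 0.00482) and -1.28 ± 0.17 in corrected against db/db lines (adjusted p = 0.000561). The first of these calls ended with shared clone names (adjusted p = 0.151). Eif4e lies on chromosome 3, whose genes had a median log2 difference of 0.32 between db/db and control clones and 0.30 between db7 and db5. In corrected lines the genes of that chromosome had medians of -0.57 against db7 and -0.24 against db5. The helicase Eif4a2 rose in corrected lines, to 815 ± 20.8 CPM, against 532 ± 42.8 CPM in db/db lines (0.62 ± 0.08, adjusted p = 0.000587). Of 11 genes around eIF2 phosphorylation, 2 (Impact and Dnajc3) rose in db/db against control lines, calls that ended with shared clone names (adjusted p = 0.169 and 0.31). In corrected lines 5 fell against db/db lines and none rose, and 6 fell and 1 rose against control lines. Impact had the lowest p of the list against db/db lines, at -0.95 ± 0.10 (edgeR adjusted p = 0.000142). Against control lines it was at -0.53 ± 0.09 (edgeR adjusted p = 0.00277). Both falls remained with shared clone names (edgeR adjusted p = 0.0148 and 0.0337). Atf4, the transcription factor made when eIF2 is phosphorylated, averaged 187 ± 2.47 CPM in corrected, 347 ± 18.5 CPM in db/db and 443 ± 87.7 CPM in control lines, with -0.89 ± 0.15 in corrected against db/db lines (adjusted p = 0.00191). It lies on chromosome 15, whose genes had a median log2 difference of 0.45 between the A5 and B1 control clones. In corrected lines the genes of that chromosome had medians of -0.08 against db5 and 0.02 against db7. Ppp1r15a, a subunit of the phosphatase of eIF2, averaged 60.2 ± 0.153 CPM in corrected, 90.1 ± 8.23 CPM in db/db and 102.6 ± 2.74 CPM in control lines, with -0.58 ± 0.08 in corrected against db/db lines (adjusted p = 0.000712).

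Of the 9 enzymes that modify eIF5A and eEF2, 7 fell in corrected against db/db lines and 5 against control lines (30.6% and 26.9% of all genes of at least 10 CPM), and edgeR called none in db/db against control lines (1 at an unadjusted p under 0.05, 1 each by DESeq2 and limma-voom). Dhps, which begins the making of hypusine, averaged 19.7 ± 0.419 CPM in corrected lines, against 31.9 ± 2.89 CPM in db/db and 29.9 ± 3.99 CPM in control lines (-0.70 ± 0.13 against db/db lines, adjusted p = 0.0028). Dph3 and Dph6, of the diphthamide pathway of eEF2, were at -0.46 ± 0.10 and -0.37 ± 0.10 against db/db lines (adjusted p = 0.00519 and 0.0138), and the call of Dph6 ended with shared clone names (0.0791). Among 12 factors of alternative initiation and ribosome rescue 4 fell and 1 rose against db/db lines, with Denr at -0.56 ± 0.07 (adjusted p = 0.000375) and a list median of 0.00. Of 10 mitochondrial translation factors 3 fell and 1 rose against db/db lines, with Gfm2 at -0.36 ± 0.06 (adjusted p = 0.00174), and edgeR called none in db/db against control lines (1 at an unadjusted p under 0.05, none by DESeq2 and 1 by limma-voom).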

How the data were processed

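Stranded TruSeq libraries of poly(A) RNA were run on a NovaSeq, per the labels. The authors deposited estimated counts per gene. Per the submitters' processing notes kallisto and GRCm38 were used, but how transcripts were summed is not given in the sources used here. Of 52143 identifiers, 51336 matched GENCODE M21, with 99.38% of all counts. Libraries held 27333914 to 41203703 counts, and 79.7% of the values were whole within 1e-06. Estimated counts divide reads among near copies, so the share of each member's 31-base words found in other genes was computed.

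Counts were rounded per library and summed per line, since the labels do not say that duplicates came from separate cultures; p-values measure the spread between lines. No pair of libraries agreed within sampling noise. The median variance over pure counting was 8.9 between duplicates of a line and 8.14 between the 2 lines of a clone name. It was 8.49 (3.09 to 13.4) between the 2 corrected lines and 93.2 between other clone names of a group. By these medians the 2 lines of a name, and the corrected lines, differed about as much as duplicates, and may not be independent replicates. Of the corrected libraries (1a and 1b of line 1, 2a and 2b of line 2), duplicates were at 15.9 (line 1) and 9.38 (line 2). Across lines, 1a and 2b were at 3.98 and 1b and 2a at 3.09, while 1a and 2a were at 13.4 and 1b and 2b at 13. Sums per line average over this difference between duplicates, so the SD over the 2 corrected lines may understate their spread. With shared clone names the corrected lines still count as 2 units. All 10 lines entered a fit of 3 groups in edgeR 4.0.16 (quasi-likelihood F-test; filterByExpr, 19700 genes; TMM; Benjamini-Hochberg adjustment; threshold 0.05) in R 4.3.3. Log2 CPM had a prior count of 2. Alternatives were DESeq2 1.42.0, limma 3.58.1 (voom), other scalings, filters, units and samples. Tables and figures used Python 3.11.15, pandas 2.3.3 and matplotlib 3.10.9.

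Members and lists were chosen with earlier results of these data known. Values in every line are given for up to 4 called members per role group in order of p, and for members singled out afterwards; from other lists up to 3 called genes are named per comparison.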

Additional observations from a re-analysis of the deposited data

Results flagged for a closer look

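In 112 tests of 4 lines each, 7 members had a line whose gap to its nearest neighbour took most of the range of its group, where chance flags about 1 in 20 groups of 4 independent lines. In control lines these were Eef1akmt2, with 9.58 CPM in line 3 (up to 9.06 CPM in the others), Eef1akmt3, with 0.720 CPM in line 1 (0.564 to 0.585 CPM), Eif2ak2, with 21.2 CPM in line 1 (19.6 CPM), and Eif2b3, with 60.9 CPM in line 1 (58.2 to 58.6 CPM). In db/db lines they were Eef1akmt4, with 10.2 CPM in line 4 (12.4 to 12.7 CPM), Eif3g, with 197.6 CPM in line 4 (214 to 216 CPM), and Eif5b, with 219.5 CPM in line 1 (228 to 229 CPM).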

How the results depend on the processing

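The line is the unit of the counts of called members (5 in db/db against control, 30 in corrected against db/db, 31 in corrected against control lines). With shared clone names as the unit they were 1, 18 and 8. With library size alone they were 5 (2 higher, 3 lower), 18 (4 higher, 14 lower) and 16 (4 higher, 12 lower). Leaving out each line in turn gave 4 to 6, 15 to 29 and 5 to 32, the lowest where a single corrected line was left. For db/db against control lines DESeq2 called 10 members, where it called 24% of all genes (16.9% in the main fit). The count was 10 in limma-voom on libraries with the line as a random block. It was 12 without the A5 lines, 13 without the db5 lines and 2 of 45 without chromosomes 3, 6, 15 and X. Shares of all genes are given only for the full data, shared clone names and DESeq2 in this comparison. The other counts of this section do not show whether members shifted more than all genes. Single libraries gave 20 with all 3 groups, 16 with control and db/db libraries alone, and 18 with a replicate block of the duplicate number; all treat duplicates as independent. The difference of duplicate 1 from duplicate 2 correlated between lines at 0.0113 to 0.552 (median 0.305), positive in all 21 pairs of lines. Whether libraries of the same duplicate number share an effect was not tested further. Control line 1 has duplicate 1 only. The other settings (DESeq2 and upper quartile factors, no filter, a mean of at least 10 CPM, only the compared groups, and without B1 or db7 lines or the second library of db/db line 2) kept the counts within 1.5 times. At a mean of at least 10 CPM, 4 were higher and 19 lower against db/db lines. Without the A5 lines Eif3e was at 0.35 in corrected against control lines. Fits without a clone name were chosen after seeing the data. The causes of these shifts were not tested. Eef1a2 and Eef1akmt3, under 1 CPM, are limited by depth.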
